A study of Mus musculus with 40 samples.

Results

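The step studied here is the change in the infarct scar of the mouse heart between day 21 and day 42 after a coronary artery had been tied off. The left anterior descending artery of adult C57BL/6 mice, an inbred laboratory strain, was ligated for good, and RNA was sequenced from 2 pieces of each heart: the injured region, where the fibrotic scar forms, and a remote region of the same heart. The groups used were the scar at day 42 (4 mice, animal labels starting with B), the scar at day 21 (4 mice, labels starting with A), the remote region of the same 4 hearts at day 42, the remote region of the same 4 hearts at day 21, and the scar at day 14 (4 mice, A labels). All of these hearts had been ligated, and no unoperated heart was analysed here. The 8 scar libraries of days 42 and 21 were chosen from the 40 libraries of the series by their labels alone. Of 11450 genes in the deposited table, 11390 had at least 1 RPKM (reads per kilobase of gene, scaled to the size of the library) in 4 or more of the 40 libraries and were tested. The B labels occur at day 42 alone, so the later day and the other set of animals cannot be told apart in any value given here. An A label can recur on another day for another mouse, and mice A3, A4, A10 and A11 are those of day 21 unless another day is given.

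Scar tissue after an infarct is built by fibroblasts, which multiply, turn into matrix-secreting myofibroblasts and then settle into a quieter state as the scar matures. Fibrils of type I and type III collagen give the scar its strength, type V collagen starts and limits the growth of these fibrils, and lysyl oxidases cross-link them. Elastic fibres, proteoglycans, basement membranes, macrophages and new vessels are the other main parts of the tissue. The libraries are of bulk tissue, in which fewer cells of a type and less RNA per cell cannot be told apart.

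The tissue labels held in the markers. Col3a1, the fibroblast product of type III collagen, lay between 374 and 542 RPKM in the day 42 scars and between 777 and 1029 RPKM in the day 21 scars, against 33.1 to 159 RPKM in the 8 remote libraries. Myh6, the main contractile myosin of heart muscle cells, lay between 351 and 872 RPKM in the 8 scars and between 3098 and 5296 RPKM in the remote pieces, so the scars held some muscle. The X-inactivation RNA Xist was above 5 RPKM in 2 of 4 mice of day 42 and in 2 of 4 of day 21, so the days were balanced for it. Read numbers recovered from the steps between deposited values came to between 18262946 and 24229803 per scar library, with a median of 720 reads per gene and library.

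A library-wide pattern ran alongside the step. Genes were sorted by the GC content of their transcript, which was known for 11110 of the 11390. In the scar the median log2 change from day 21 to day 42 was 0.127 in the 2222 genes lowest in GC and -0.163 in the 2222 highest, and the remote region showed 0.104 and -0.104. The step before it, from day 14 to day 21 in the scar, ran the other way (-0.0969 and 0.0976). Both scar steps share the day 21 libraries. In each library the median deviation of the highest group from its gene means, minus that of the lowest group, was -0.168, -0.186, -0.223 and -0.174 in the day 42 scars, against 0.0814, 0.0145, 0.252 and 0.103 in the day 21 scars. The scars of the 2 days did not overlap in this measure. The remote libraries did, with -0.137, -0.234, -0.172 and 0.193 at day 42, against 0.0944, 0.0967, 0.116 and 0.26 at day 21, where mouse B12 lay within the range of day 21. For this reason gene counts are also given after the log2 values of each library had been adjusted for GC content and length of the transcript, a setting chosen after the data had been seen. A single gene described as higher or lower in the scar kept that call under the adjustment unless its loss is stated. Such an adjustment also removes any change of the tissue that goes with GC content, and the part of the pattern in each result was not tested further.

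**Figure D1:**
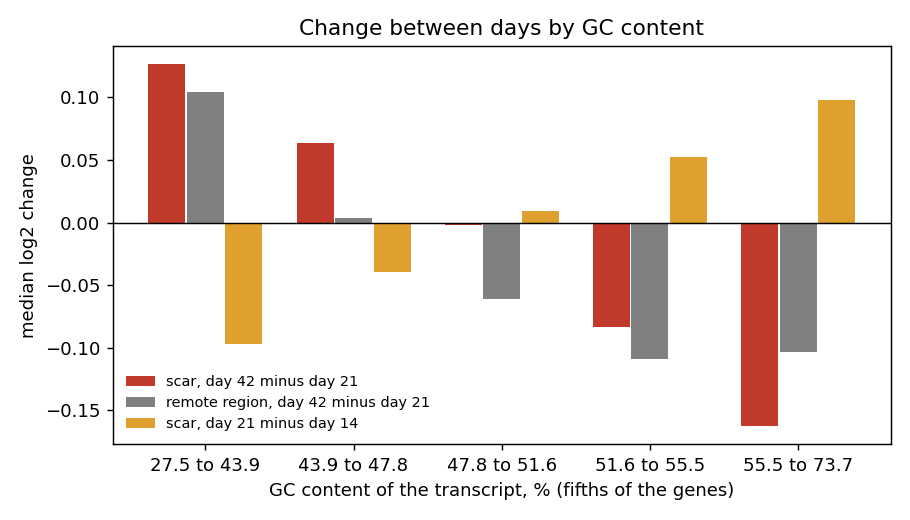
Median log2 change (vertical axis) in 5 equal groups of genes ordered by the GC content of their transcript in percent (horizontal axis), for the scar and the remote region from day 21 to day 42 and for the scar from day 14 to day 21. Both steps to day 42 run from above 0 in the lowest group to below 0 in the highest, and the step to day 21 runs the opposite way.

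Many genes changed between the days, nearly all by little. Of the 11390 genes, 2825 (24.8%) passed the test in the scar (limma on log2(RPKM + 1), Benjamini-Hochberg adjusted p under 0.05 over all genes). Log2 changes are given as day 42 minus day 21, ± SE of that fit. Of these, 1281 (11.2%) were higher and 1544 (13.6%) lower at day 42. A log2 change of at least 1 in size was found in 20 of the higher genes (0.176%) and in 31 of the lower ones (0.272%), and the median size over all genes was 0.148. After the GC and length adjustment 2162 of 11110 genes (19.5%) passed, 1049 higher (9.44%) and 1113 lower (10%), and 1442 of the 2162 were among those called before. The 4 values of day 42 lay wholly above the 4 of day 21 in 1447 genes (12.7%) and wholly below them in 1641 (14.4%). Whether more genes were higher or lower depended on the scaling between libraries: 45.3% of the calls were higher as deposited, 55.1% with equal library medians and 37% when scaled to recovered read totals.

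Transcripts of the fibril-forming collagens had the lowest median change of the 36 gene lists examined. Of 10 such genes tested, 7 fell and 0 rose, with a median log2 change of -0.77, against -0.0027 over all genes. The share lower was 70%, against 13.6% of all genes tested, and 60% against 10% after the GC and length adjustment. The summed level of the 10 genes was 726 to 1058 RPKM in the day 42 scars and 1647 to 2220 RPKM in the day 21 scars, with no overlap. The adjustment for GC content and length left 6 of the 7 (median -0.57), and leaving out any of the 8 mice left 6 to 8 of the 10 lower.

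Col1a1 (chromosome 11, 94936224 to 94953042 in mm10), which encodes the alpha 1 chain of type I collagen, stood at 79.3, 84.2, 125 and 127 RPKM at day 42, against 360.4, 352, 509 and 318 RPKM at day 21. The highest value of day 42 was well below the lowest of day 21. The log2 change was -1.89 ± 0.21 (limma adjusted p = 1.2e-05), and -1.62 (limma adjusted p = 3.86e-05) after the adjustment. Its partner chain gene Col1a2 (chromosome 6, 4504814 to 4541544) was at 133, 140.4, 171 and 191 RPKM at day 42, against 336, 318, 379 and 282 RPKM at day 21. Again the days were apart, but the change was smaller, at -1.05 ± 0.16 (limma adjusted p = 0.0002).

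Col3a1 (chromosome 1, 45311538 to 45349706), of the type III collagen that is laid down early in a wound, had 374, 519, 536 and 542 RPKM at day 42, against 777, 891, 1029 and 784 RPKM at day 21. Mouse B1 lay below the other 3 of its day, and all 4 were below every day 21 scar. The change was -0.83 ± 0.15 (limma adjusted p = 0.000626). Col5a1 (chromosome 2, 27886425 to 28039514), of the type V collagen inside the fibrils, stood at 41.7, 40.9, 47.4 and 49.4 RPKM at day 42, against 86.5, 89.5, 108 and 90 RPKM at day 21. These groups were apart too, with a change of -1.04 ± 0.15 (limma adjusted p = 9.58e-05).

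Col5a2 (chromosome 1, 45374321 to 45503282) had 86.2, 105, 101 and 128 RPKM at day 42, against 153, 157, 161 and 149.7 RPKM at day 21. The 4 day 21 values lay close together and above all of day 42. Its change of -0.57 ± 0.12 (limma adjusted p = 0.00181) was no longer called when all 40 libraries entered the fit with the mouse as a random effect (adjusted p = 0.0664). Col5a3 (chromosome 9, 20770050 to 20815067), the rarer chain of type V, was at 3.04, 3.83, 4.27 and 5.84 RPKM at day 42, against 5.48, 5.99, 15 and 12.6 RPKM at day 21. Here the days overlapped, through mouse B12 at day 42 and A3 at day 21 (log2 change of -0.95 ± 0.24, limma adjusted p = 0.00717), and the call was only just kept after the GC and length adjustment (-0.65, limma adjusted p = 0.05). Col27a1 also fell (log2 change of -0.45 ± 0.15, limma adjusted p = 0.0319), a call that ended with the adjustment (adjusted p = 0.469). Of the remaining 3 members, the cartilage-type collagen genes Col2a1 and Col11a1 had log2 changes of -0.71 ± 0.26 and -0.29 ± 0.27, and Col24a1 had 0.17 ± 0.18, none of them past the threshold (adjusted p = 0.0544, 0.455 and 0.503).

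**Figure D2:**
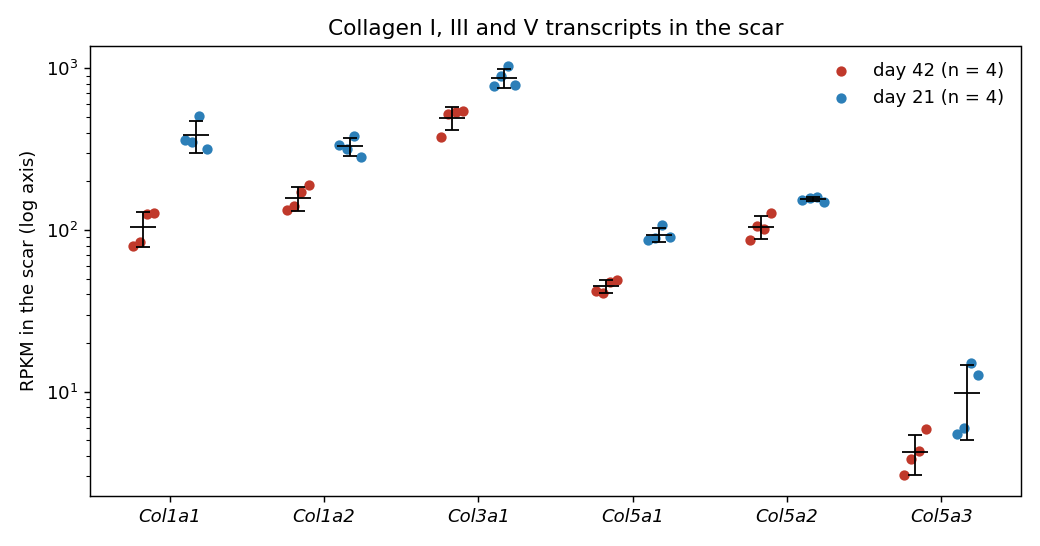
RPKM (log axis) of 6 collagen genes in the 4 day 42 scars (left of each pair) and the 4 day 21 scars (right); points are mice, black marks the mean and its SD. For 5 of the 6 genes every day 42 value lies below every day 21 value, and for Col5a3 the days overlap.

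The estimated size of the fall differed between the chains, at the limit of what 4 against 4 can show. The ratio of Col5a1 to Col1a1 within a library, on which the scaling of that library has no bearing, was -1.18 ± 0.235 on the log2 scale in the day 42 scars and -2.02 ± 0.174 in the day 21 scars (SD, n = 4 each). The difference was 0.84 (two-sided exact permutation test, p = 0.0286, the smallest that 4 against 4 can give). The ratio of Col3a1 to Col1a1 was 2.26 ± 0.25 in the day 42 scars and 1.19 ± 0.154 in the day 21 scars, a difference of 1.07 (two-sided exact permutation test, p = 0.0286). In the remote region of the same hearts the differences were 0.87 and 0.85 (two-sided exact permutation test, p = 0.0857 for each), with day 42 also on the higher side. The 2 ratios share Col1a1 and are not independent, and with Benjamini-Hochberg adjustment over these 4 permutation tests the adjusted p was 0.0571 in the scar and 0.0857 in the remote region. The ratios were taken from values as deposited, and the part of the GC pattern in them was not tested.

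The promoters of 2 of these genes that moved together are shown, as the 250 bases before the start given by RefSeq (GRCm38.p6, + strand, 5′ to 3′). Capitals mark matches to CCAAT or TATAAA, searched on both strands. That of Col1a2 is at chr6:4505368-4505617, downstream of the start that GENCODE gives for the gene, and that of Col3a1 at chr1:45311288-45311537.
Col1a2: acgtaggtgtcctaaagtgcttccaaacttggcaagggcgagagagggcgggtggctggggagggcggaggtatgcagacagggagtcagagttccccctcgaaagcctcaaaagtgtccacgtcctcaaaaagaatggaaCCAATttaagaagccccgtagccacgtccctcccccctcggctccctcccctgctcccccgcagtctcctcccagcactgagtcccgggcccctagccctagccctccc
Col3a1: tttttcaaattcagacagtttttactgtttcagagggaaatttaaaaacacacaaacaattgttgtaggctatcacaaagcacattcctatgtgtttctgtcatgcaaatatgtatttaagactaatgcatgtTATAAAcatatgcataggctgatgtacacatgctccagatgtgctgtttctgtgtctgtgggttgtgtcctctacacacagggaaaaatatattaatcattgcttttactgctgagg
The Col1a2 window holds 1 CCAAT, and the Col3a1 window 1 TATAAA. Of 32851 promoter windows of this length in the RefSeq table, 33.8% hold CCAAT and 12.4% hold TATAAA on either strand. Among the 7 fibrillar collagen genes with an entry, 3 held CCAAT and 1 held TATAAA.

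Collagens of basement membranes and of the fibril surface fell as well, by less. Of 20 network, beaded and fibril-associated collagen genes, 12 fell and 0 rose (median -0.40). These were 60% of the list, against 13.6% lower among all genes tested, and 20% against 10% after the GC and length adjustment. Only 4 of the 12 remained after the GC and length adjustment (Col4a2, Col4a5, Col6a2 and Col15a1), and 7 to 12 were lower when each mouse was left out in turn, with 7 when A10 was left out and 8 when B1 was. Col15a1, of a basement membrane collagen found around capillaries and muscle cells, had 31.5, 36.9, 38.2 and 27.6 RPKM at day 42, against 70.7, 58.7, 72.2 and 75.6 RPKM at day 21. All values of day 42 were below all of day 21, with a log2 change of -1.03 ± 0.12 (limma adjusted p = 1.2e-05) and -0.82 (limma adjusted p = 6.36e-05) after the adjustment. Hspg2, which encodes the large basement membrane proteoglycan perlecan, stood at 33.3, 28.3, 38.4 and 38.1 RPKM at day 42, against 96.8, 83.8, 98.1 and 77.7 RPKM at day 21. Each day 42 scar held less than every day 21 scar (log2 change of -1.35 ± 0.12, limma adjusted p = 8.78e-07, and -1.08, limma adjusted p = 2.7e-06 with the adjustment). Col4a1 and Col4a2, the paired chains of the common type IV network, were at 135 ± 9.6 RPKM at day 42 against 211 ± 49.8 at day 21 for Col4a1, and at 96.3 ± 8.71 RPKM at day 42 against 155 ± 19.4 at day 21 for Col4a2 (log2 changes of -0.62 ± 0.14 and -0.68 ± 0.12). After the adjustment Col4a1 no longer passed (adjusted p = 0.0607) and Col4a2 had -0.38. Col12a1, Col14a1 and Col8a1 did not pass (log2 changes of -0.27 ± 0.15, -0.30 ± 0.11 and -0.25 ± 0.13, adjusted p = 0.19, 0.0609 and 0.174).

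Enzymes that trim and cross-link collagen went down with it. Of 32 genes of collagen processing and cross-linking, 14 fell and 0 rose (median -0.28), and 10 fell after the GC and length adjustment. Leaving out A10 or B1 left 7 lower, and leaving out A11 left 9. Adamts2, the protease that removes the amino-terminal propeptide of procollagen I, was at 29.8, 28.1, 36.1 and 34 RPKM at day 42, against 54, 59.2, 54 and 46.8 RPKM at day 21. The days were apart, and the log2 change was -0.72 ± 0.09 (limma adjusted p = 1.98e-05). Bmp1, which removes the other propeptide, and Pcolce, its enhancer, had log2 changes of -0.53 ± 0.10 and -0.35 ± 0.11 (limma adjusted p = 0.000951 and 0.0212), that of Bmp1 being -0.33 after the adjustment. Sparc, a collagen-binding secreted protein, was at 536 ± 80.5 RPKM at day 42 against 883 ± 85 at day 21 (log2 change of -0.73 ± 0.12, limma adjusted p = 0.000469). Loxl1 and Lox, which start the cross-links, changed by -0.56 ± 0.10 and -0.59 ± 0.18 (adjusted p = 0.000783 and 0.0194, with -0.31 for Loxl1 after the adjustment), while Loxl2 did not pass (log2 change of -0.34 ± 0.15, adjusted p = 0.097). The transcription factor gene Creb3l1, whose product drives collagen I transcription in mouse bone, was at 1.33 ± 0.766 RPKM at day 42 against 3.13 ± 0.753 at day 21 (log2 change of -0.87 ± 0.19, limma adjusted p = 0.00329). By contrast the collagen chaperone gene Serpinh1 and the prolyl hydroxylase subunit gene P4hb did not pass (log2 changes of -0.30 ± 0.17 and -0.04 ± 0.10, adjusted p = 0.226 and 0.788).

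Elastic fibre genes shared the direction. Of 17 tested, 8 fell and 0 rose (median -0.42), and 7 fell after the GC and length adjustment. The falls were 47.1% of the list, against 13.6% of all genes tested, and 41.2% against 10% after the adjustment. Ltbp3, which tethers latent TGF-beta to matrix fibres, stood at 18.8, 17.7, 23.1 and 24.7 RPKM at day 42, against 49.3, 45.8, 46.1 and 33.1 RPKM at day 21. No value of day 42 reached the lowest of day 21, and the change was -1.01 ± 0.11 (limma adjusted p = 1.2e-05). Its relative Ltbp4 was at 25.4 ± 3.29 RPKM at day 42 against 47.2 ± 6.24 at day 21 (log2 change of -0.87 ± 0.12, limma adjusted p = 8.21e-05). The microfibril genes Mfap2 and Fbn1 changed by -0.96 ± 0.14 and -0.72 ± 0.16 (adjusted p = 0.000178 and 0.00275). Eln, of elastin itself, was at 38.6 ± 11.1 RPKM at day 42 against 96.2 ± 54.2 at day 21. Its day 21 SD was large, and the change of -1.15 ± 0.33 (limma adjusted p = 0.0177) lost its call with the adjustment (adjusted p = 0.0515).

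Of 14 genes of small leucine-rich and large proteoglycans, 1 rose and 3 fell, and 1 rose and 2 fell after the GC and length adjustment. The median of 0.14 as deposited was -0.036 with the adjustment, and 5 were lower without A11 or B12. The riser, Omd, of osteomodulin from bone and tendon matrix, had 20.1, 17.1, 16.9 and 20.8 RPKM at day 42, against 9.82, 14.5, 9.12 and 9.67 RPKM at day 21. Mouse A4 lay above the other day 21 mice and still below all of day 42 (log2 change of 0.76 ± 0.17, limma adjusted p = 0.00284, and 0.45 after the adjustment). Bgn, of biglycan, fell with Hspg2 (306 ± 60.3 RPKM at day 42 against 474 ± 52.5 at day 21, log2 change of -0.64 ± 0.15, limma adjusted p = 0.00493), as did Prelp (log2 change of -0.48 ± 0.16, limma adjusted p = 0.0351), whose call ended with the adjustment (adjusted p = 0.141). Dcn, of decorin, and Lum, of lumican, which coat collagen fibrils, did not pass, with log2 changes of 0.39 ± 0.16 and 0.15 ± 0.17 (adjusted p = 0.0776 and 0.546). Fmod and Comp, of late-scar and tendon matrix, did not pass either (log2 changes of -0.44 ± 0.20 and -0.15 ± 0.18, adjusted p = 0.107 and 0.563).

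Of 32 matrix proteases and inhibitors, 1 rose and 9 fell in the remote region. In the scar 1 rose and 7 fell, 3.12% and 21.9% against 11.2% and 13.6% of all genes tested. After the GC and length adjustment 1 rose and 3 fell in the scar, 3.12% and 9.38% against 9.44% and 10% of all genes. The number lower was 4 without A3 or B9, 3 without A4 and 2 without A10, B1 or B3. Mmp3, the matrix protease stromelysin 1, was at 43.2, 42.3, 38.7 and 34.6 RPKM at day 42, against 18.5, 21.7, 22.5 and 29.5 RPKM at day 21. Every day 42 scar was above every day 21 scar (log2 change of 0.77 ± 0.16, limma adjusted p = 0.00184, and 0.59, limma adjusted p = 0.0139 with the adjustment). Ctsb, of the lysosomal protease cathepsin B, and Adamts12 fell by less than 1 on the log2 scale (log2 changes of -0.37 ± 0.12 and -0.54 ± 0.16, adjusted p = 0.0318 and 0.0162). The membrane-bound protease gene Mmp17 had 0.381, 0.472, 0.528 and 0.74 RPKM at day 42, against 0.866, 0.903, 1.09 and 0.818 RPKM at day 21. These levels were near or below 1 RPKM, and the call (log2 change of -0.33 ± 0.09, limma adjusted p = 0.011) ended with the adjustment (-0.10, limma adjusted p = 0.456). The gelatinase gene Mmp2 and the collagenase gene Mmp14 were called as deposited (log2 changes of -0.42 ± 0.15 and -0.57 ± 0.18) and not with the adjustment (adjusted p = 0.285 and 0.116).

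Of 25 activated fibroblast genes, 9 fell and 0 rose (median -0.34), 7 of them also after the GC and length adjustment. The share lower was 36%, against 13.6% of all genes tested, and 30.4% of 23 genes after the adjustment, against 10%. The summed level was 1897 to 2722 RPKM at day 42 against 2633 to 3107 at day 21. Leaving out B3 left 5 lower and leaving out A10 left 6. Ltbp2 had 69.8, 52.8, 77.3 and 91.3 RPKM at day 42, against 154, 127, 118 and 114 RPKM at day 21. The days were apart (log2 change of -0.83 ± 0.16, limma adjusted p = 0.000982, and -0.55 after the adjustment), but the call ended with all 40 libraries and the mouse as a random effect (adjusted p = 0.108). Fn1, of fibronectin, was at 141 ± 55.9 RPKM at day 42 against 262 ± 47.5 at day 21 (log2 change of -0.95 ± 0.24, limma adjusted p = 0.00665), and Cthrc1, a secreted product of activated cardiac fibroblasts, at 24.2 ± 7.86 RPKM at day 42 against 37.1 ± 5.65 at day 21 (log2 change of -0.63 ± 0.16, limma adjusted p = 0.00783). The values of both overlapped between the days. Postn, of periostin, and Acta2, of the smooth muscle actin of myofibroblasts, did not pass (log2 changes of -0.34 ± 0.20 and -0.26 ± 0.21, adjusted p = 0.225 and 0.392).

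Of 25 resting fibroblast genes, 3 rose (Vit, Medag and Dpt) and 2 fell (Col15a1 and Htra3). These shares of 12% and 8% lay near or below the 11.2% higher and 13.6% lower of all genes tested, and the adjusted counts were also 3 and 2. Their median was 0.018, and below 0 when values were scaled to recovered read totals. The summed level was 4118 to 4970 RPKM at day 42 and 3925 to 4806 at day 21, with overlap. Vit, of the matrix protein vitrin, had 3.88, 3.15, 3.68 and 3.83 RPKM at day 42, against 1.98, 3.52, 1.62 and 1.34 RPKM at day 21. Mouse A4 overlapped with day 42, and the change was 0.62 ± 0.15 (limma adjusted p = 0.0061). Dpt, of dermatopontin, was at 136 ± 27.8 RPKM at day 42 against 101 ± 26.5 at day 21 (log2 change of 0.44 ± 0.16, limma adjusted p = 0.047, and adjusted p = 0.181 after the adjustment). The fibroblast identity genes Pdgfra and Tcf21 did not pass (log2 changes of -0.08 ± 0.12 and -0.35 ± 0.15, adjusted p = 0.634 and 0.0958). In 19 genes of late scar fibroblasts, of cartilage and bone type, 3 fell and 0 rose: Runx2, a transcription factor of bone, Clu, of the chaperone clusterin, and Col8a2. Of the 18 with a GC value 2 fell after the adjustment, without Col8a2 (adjusted p = 0.187), the median of -0.12 as deposited was 0.0084 there, and 5 were lower without A11. Runx2 was at 1.2, 1.22, 1.48 and 1.84 RPKM at day 42, against 2.43, 2.47, 2.04 and 1.53 RPKM at day 21. The days overlapped through A11, at low levels (log2 change of -0.35 ± 0.09, limma adjusted p = 0.00959), and with only the 8 libraries in the fit the adjusted p was 0.0596.

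Of 28 TGF-beta and activin pathway genes, 7 fell and 0 rose (median -0.087), against 13.6% lower among all genes tested. With the GC and length adjustment 4 fell and 1, the inhibitory Smad6, rose. The ligand gene Tgfb1 was at 3.41 ± 0.166 RPKM at day 42 against 5.27 ± 0.376 at day 21 (log2 change of -0.51 ± 0.09, limma adjusted p = 0.000685, and -0.32 after the adjustment). Tgfb2 and Tgfb3, of the other ligands, did not pass (log2 changes of 0.36 ± 0.17 and -0.31 ± 0.14, adjusted p = 0.126 and 0.0978). Acvr1, of a type I receptor for activins and bone morphogenetic proteins, had 5.06, 5.56, 6.34 and 6.07 RPKM at day 42, against 9.72, 9.9, 9.12 and 7.42 RPKM at day 21. All 4 of day 42 were lower (log2 change of -0.57 ± 0.08, limma adjusted p = 0.000126, and -0.56, limma adjusted p = 0.000198 with the adjustment). Of 8 secreted Wnt modulators 0 passed as deposited or with the adjustment. The most abundant, Sfrp2, had 226, 193, 274 and 467 RPKM at day 42, against 532, 603, 276 and 98 RPKM at day 21. The spread within day 21 covered the whole of day 42 (log2 change of -0.16 ± 0.41, limma adjusted p = 0.805).

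**Figure D3:**
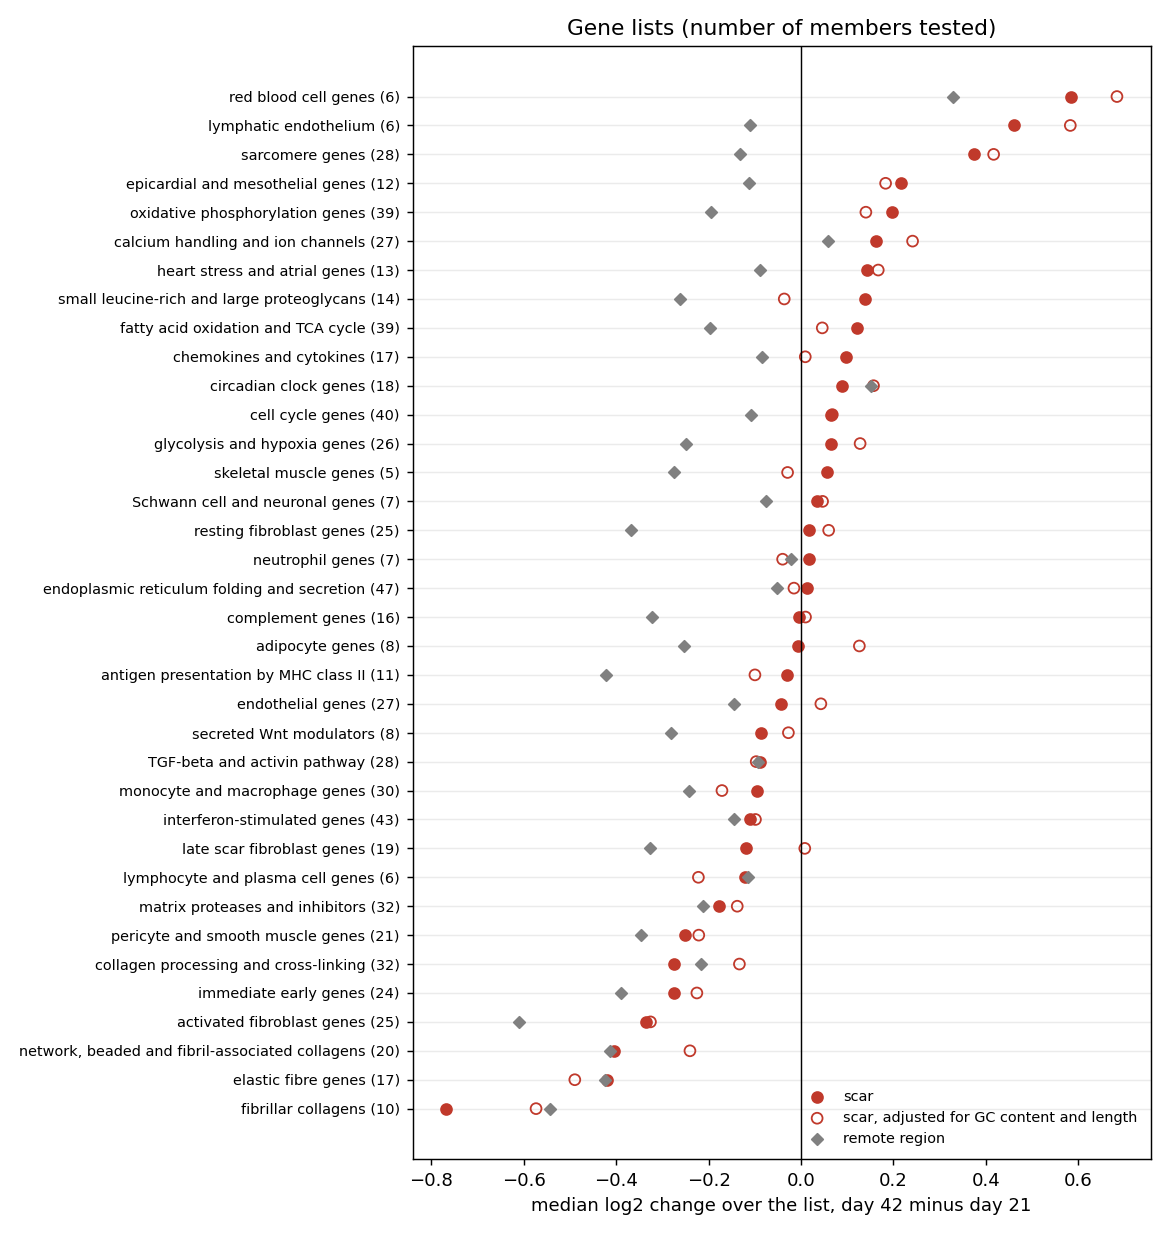
Median log2 change from day 21 to day 42 over each of 36 gene lists (number of members tested in brackets), in the scar as deposited (filled circles), in the scar after adjustment for GC content and length (open circles) and in the remote region (grey diamonds). Fibrillar collagens have the lowest scar median, -0.77 as deposited and -0.57 adjusted, and their remote median of -0.54 is also below 0.

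Macrophage genes did not move as a block. Of 30 monocyte and macrophage genes, 3 rose (Mrc1, Folr2 and Ccr2) and 4 fell (Cd63, Cd14, Mertk and Csf1r), shares of 10% and 13.3% that lay near the 11.2% and 13.6% of all genes tested. After the GC and length adjustment 1 rose and 4 fell, without Csf1r (adjusted p = 0.246). The summed level overlapped, at 1357 to 1667 RPKM at day 42 and 1377 to 2162 at day 21. The rises numbered 1 without A3, A11, B3, B9 or B12, and the falls 2 without A4, A10, B1, B3 or B9. Mrc1, of the mannose receptor of tissue-resident macrophages, had 38.7, 34.5, 36.2 and 41.6 RPKM at day 42, against 20.2, 28.3, 24.5 and 26.9 RPKM at day 21. Every day 42 value was above every day 21 value (log2 change of 0.58 ± 0.13, limma adjusted p = 0.00296, and 0.53, limma adjusted p = 0.012 after the GC and length adjustment). Folr2 and Ccr2, of a resident macrophage receptor and of the receptor of recruited monocytes, had small calls (log2 changes of 0.56 ± 0.18 and 0.49 ± 0.18, adjusted p = 0.0279 and 0.0491) that ended with the adjustment (adjusted p = 0.0631 and 0.176). F13a1, of coagulation factor XIII, taken here as a macrophage gene, was among the largest rises. F13a1 and Mgl2 were not members of this list and were named for the size of their change. The scar mean of F13a1 was 37.5 RPKM at day 3, and which cells held it was not tested. It had 14.8, 18.2, 16.7 and 14.7 RPKM at day 42, against 4.67, 6.47, 9.29 and 8.58 RPKM at day 21. The days were apart (log2 change of 1.09 ± 0.22, limma adjusted p = 0.00161, and 1.03, limma adjusted p = 0.00419 with the adjustment). Mgl2, of a galactose-binding lectin of macrophages and dendritic cells, was at 6.78, 7.34, 6.11 and 7.8 RPKM at day 42, against 1.4, 2.95, 5.91 and 3.56 RPKM at day 21. Mouse A10 came close to the lowest day 42 value, and the days did not overlap (log2 change of 0.94 ± 0.25, limma adjusted p = 0.0102).

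In the other direction, Cd63, of an endosomal protein that many cell types make, was at 34.1, 31.7, 35.1 and 34.2 RPKM at day 42, against 56.9, 52.9, 60.3 and 49.1 RPKM at day 21. The days were apart (log2 change of -0.68 ± 0.14, limma adjusted p = 0.00152, and -0.83, limma adjusted p = 0.000795 with the adjustment). Cd14, of the co-receptor for bacterial lipopolysaccharide, was at 8.99 ± 1.63 RPKM at day 42 against 15.5 ± 0.87 at day 21 (log2 change of -0.73 ± 0.19, limma adjusted p = 0.00772). C5ar1, of the receptor for complement fragment C5a, had 4.01, 3.65, 4.98 and 4.22 RPKM at day 42, against 7.08, 7.68, 8.66 and 7.17 RPKM at day 21. No day 42 value reached day 21 (log2 change of -0.73 ± 0.11, limma adjusted p = 0.0002), and of 16 complement genes it was the only one that fell, beside 1 that rose, the inhibitor gene Cd59a (log2 change of 0.42 ± 0.10, limma adjusted p = 0.00497, with adjusted p = 0.127 after the adjustment). Of 17 chemokine and cytokine genes 1 rose and 2 fell, and 1 each after the adjustment. The number lower was 1 without any of the mice but B12, and the number higher 2 without A3 or A4. The riser was the monocyte attractant gene Ccl7, with 3.1, 3.77, 5.29 and 4.88 RPKM at day 42, against 0.773, 1.62, 1.04 and 3.36 RPKM at day 21. Mouse A11 overlapped with day 42 (log2 change of 1.03 ± 0.27, limma adjusted p = 0.0102). Cxcl16 fell (log2 change of -0.49 ± 0.10, limma adjusted p = 0.00223), and so did the macrophage growth factor gene Csf1, whose call ended with the adjustment (adjusted p = 0.216).

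Of 11 genes of antigen presentation by MHC class II 0 were called in limma, as deposited or after the adjustment. Cd74, of the invariant chain, had 224, 242, 167 and 185 RPKM at day 42, against 213, 313, 187 and 191 RPKM at day 21. The days overlapped (log2 change of -0.13 ± 0.17, limma adjusted p = 0.627). Among 6 lymphocyte and plasma cell genes tested, the call was the chemokine receptor gene Cxcr4, with 8.21, 7.77, 5.98 and 7.53 RPKM at day 42, against 15.1, 19.8, 16.8 and 9.59 RPKM at day 21. All day 42 scars were lower (log2 change of -0.93 ± 0.30, limma adjusted p = 0.0292), and the call ended without A3, A4, A10, B3 or B9 (adjusted p = 0.0577, 0.082, 0.0765, 0.054 and 0.078). The immunoglobulin genes Ighm and Igkc did not pass (log2 changes of 0.80 ± 0.43 and 0.45 ± 1.06, adjusted p = 0.19 and 0.787). Of 7 neutrophil genes 0 passed, S100a8 and S100a9 were below 1 RPKM on average on both days, and Clec4d was at 2.68 ± 0.151 RPKM at day 42 against 4.06 ± 0.742 at day 21 (log2 change of -0.45 ± 0.21, limma adjusted p = 0.123, with -0.77, limma adjusted p = 0.0283 after the adjustment). Interferon-stimulated genes had 1 rise and 4 falls in 43, 2.33% and 9.3% against 11.2% and 13.6% of all genes tested, and 0 rises and 6 falls after the adjustment. The falls numbered 2 without A3 or A10. Isg15, of a ubiquitin-like protein, was at 3.58, 3.95, 4.47 and 2.45 RPKM at day 42, against 8.23, 5.4, 7.11 and 5.36 RPKM at day 21. The 2 days were apart (log2 change of -0.71 ± 0.18, limma adjusted p = 0.00885). The riser Ifit2 (log2 change of 0.35 ± 0.13, limma adjusted p = 0.0491) lost its call with the adjustment (adjusted p = 0.172) and without A10, A11, B1, B3, B9 or B12 (0.0594 to 0.145).

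Of 40 cell cycle genes, 7 rose, 33 were not called and 0 fell, at a median of 0.066 that is small beside the median size of 0.148 over all genes, and their summed level was 126 to 137 RPKM at day 42 and 114 to 125 at day 21. The count was 1 to 10 when each mouse was left out (1 without A3, A11 or B9, 2 without B12, 3 without A10 or B3, 10 without A4), and 3 after the GC and length adjustment: Mki67, Ccnd1 and Mcm2. The share higher was 17.5% as deposited, against 11.2% of all genes tested, and 7.5% after the adjustment, against 9.44%. Ccnd1, of the cyclin that opens the cycle, had 19.1, 18.8, 19.2 and 17.9 RPKM at day 42, against 14.7, 13, 14.5 and 14.8 RPKM at day 21. All values of day 42 were higher (log2 change of 0.38 ± 0.07, limma adjusted p = 0.000686). Mki67, of the proliferation marker Ki-67, was at 5.77 ± 0.711 RPKM at day 42 against 4.14 ± 1.03 at day 21 (log2 change of 0.41 ± 0.12, limma adjusted p = 0.021).

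Of 47 genes of folding and secretion in the endoplasmic reticulum, 5 rose and 6 fell (2 and 7 with the adjustment). These shares of 10.6% and 12.8% were close to the 11.2% and 13.6% of all genes tested, and 3 rose without A3, A4, B1 or B9. Hsp90b1, of the chaperone GRP94, had 197, 133, 150.4 and 151 RPKM at day 42, against 96.2, 93.5, 107 and 113 RPKM at day 21. The days were apart (log2 change of 0.61 ± 0.12, limma adjusted p = 0.00163). Pdia3, of a disulfide isomerase, moved with it (log2 change of 0.41 ± 0.10, limma adjusted p = 0.00485). Arf4, of a GTPase of vesicle traffic, was at 23.3, 22.3, 23.4 and 21.8 RPKM at day 42, against 32.9, 29.4, 34 and 31.6 RPKM at day 21. All day 42 values were lower (log2 change of -0.48 ± 0.08, limma adjusted p = 0.000293), and the cargo receptor gene Tmed10 and the stress transcription factor gene Xbp1 also fell (log2 changes of -0.31 ± 0.07 and -0.30 ± 0.10, adjusted p = 0.00228 and 0.0337).

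Heart muscle transcripts in the scar pieces tended upward, with few calls. All 28 sarcomere genes tested had a positive estimate, 5 of them passed (Xirp2, Tnnt2, Lmod2, Ttn and Ankrd1), and the median was 0.38. The summed level overlapped, at 8721 to 14590 RPKM in the day 42 scars and 6615 to 11361 RPKM in the day 21 scars, against 40849 to 51431 in the remote libraries. After the adjustment 2 passed (Tnnt2 and Xirp2). The share higher was 17.9% as deposited, against 11.2% of all genes tested, and 7.14% after the adjustment, against 9.44%. Leaving out each mouse gave 1 to 8, with 1 without A4, A10, B1 or B3, 2 without B9, 3 without A3 and 8 without B12. Xirp2, of a repeat protein at the ends of the muscle cell, had 485, 280.2, 336 and 134 RPKM at day 42, against 139, 74.9, 70.5 and 161 RPKM at day 21. Mouse B12 lay within the day 21 range (log2 change of 1.41 ± 0.39, limma adjusted p = 0.0123). Tnnt2, of cardiac troponin T, was at 344 ± 47.1 RPKM at day 42 against 214 ± 27.3 at day 21 (log2 change of 0.68 ± 0.22, limma adjusted p = 0.0277), and it also rose in the remote region (log2 change of 0.51 ± 0.12, limma adjusted p = 0.00437). Myh6 and Myh7, of the cardiac myosins, did not pass (log2 changes of 0.42 ± 0.37 and 0.57 ± 0.38, adjusted p = 0.424 and 0.281). The share of muscle in each dissected piece was not measured, and its part in these values and in those of the matrix genes was not tested.

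Of 13 heart stress and atrial genes 2 rose, Xirp2 and Ankrd1, and 1 after the adjustment, Xirp2, with 1 without A3, A10, B1, B3 or B9. These shares were 15.4%, against 11.2% of all genes tested, and 7.69% after the adjustment, against 9.44%. Nppa and Nppb, of the natriuretic peptides, did not pass (log2 changes of 0.14 ± 0.21 and 0.01 ± 0.28, adjusted p = 0.673 and 0.991). Of 27 calcium handling and ion channel genes 4 rose, Asph, Trdn, S100a1 and Kcnd3, the same 4 after the adjustment, and 2 without B3. The share of 14.8% stood against 11.2% of all genes as deposited and 9.44% after the adjustment. Trdn, of triadin at the calcium store of the muscle cell, was at 32.7 ± 5.31 RPKM at day 42 against 18.8 ± 2.33 at day 21 (log2 change of 0.76 ± 0.19, limma adjusted p = 0.00805), and Asph, whose locus also encodes junctin of that store, at 14.8, 16.5, 14.5 and 13.8 RPKM at day 42, against 12.3, 11.4, 10.8 and 13.3 RPKM at day 21, with the days apart (log2 change of 0.29 ± 0.07, limma adjusted p = 0.00764). Oxidative phosphorylation genes rose in 4 of 39 cases and fell in 0 (median 0.20), a share of 10.3% against 11.2% of all genes tested. After the adjustment 6 of 39 (15.4%) rose, against 9.44% of all genes. Uqcrb, of a subunit of respiratory complex III, had 80.3, 89.7, 69.6 and 63.4 RPKM at day 42, against 39.7, 34, 42.4 and 53 RPKM at day 21. Every day 42 scar was higher (log2 change of 0.83 ± 0.13, limma adjusted p = 0.000247). Cox6c, of complex IV, had 44.9, 50.6, 45.1 and 34.9 RPKM at day 42, against 24.3, 22.4, 24.2 and 29.1 RPKM at day 21. Here as well the lowest day 42 scar exceeded the highest of day 21 (log2 change of 0.78 ± 0.12, limma adjusted p = 0.000252). Of 39 genes of fatty acid oxidation and the TCA cycle 2 rose, Sucla2 and Idh3b, the first with 37.2, 37.6, 32.7 and 26.7 RPKM at day 42, against 23.9, 19.8, 23.7 and 28.5 RPKM at day 21. Mouse A11 overlapped (log2 change of 0.47 ± 0.13, limma adjusted p = 0.0114), and the call ended with the adjustment (adjusted p = 0.0665). Of 26 glycolysis and hypoxia genes 1 rose, Hif1a, of the oxygen-sensing transcription factor (log2 change of 0.27 ± 0.08, limma adjusted p = 0.0262), without a call after the adjustment (adjusted p = 0.198) or without A3, A4, A10, B3 or B12 (0.0523 to 0.0816), and 4 of the list rose without A11. The 4 oxidative phosphorylation calls were 7 without A11 and 10 without B12, and the 2 of the TCA list were 6 without either of these mice and 1 without A4, B1 or B3.

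Of 21 pericyte and smooth muscle genes 11 fell and 0 rose in the remote region (median -0.35). After the adjustment 7 fell and 1 rose there. In the scar 7 fell and 0 rose (median -0.25), a share lower of 33.3% against 13.6% of all genes tested. After the adjustment 2 fell, Rgs5 and Notch3 (9.52%, against 10% of all genes), and 4 fell without A10 or B3. Notch3, of the Notch receptor of mural cells, stood at 8.58, 6.76, 7.37 and 8.11 RPKM at day 42, against 15, 15.3, 15.1 and 14.3 RPKM at day 21. The days were far apart relative to their spread (log2 change of -0.87 ± 0.10, limma adjusted p = 1.27e-05, and -0.57, limma adjusted p = 0.000214 with the adjustment). Pdgfrb, of the receptor that recruits pericytes, was at 49.6 ± 8.55 RPKM at day 42 against 69.2 ± 7.7 at day 21 (log2 change of -0.48 ± 0.11, limma adjusted p = 0.00514) and lost its call (adjusted p = 0.0668). Of 27 endothelial genes 3 rose (Emcn, Kdr and Fli1) and 4 fell (Eng, Cdh5, Esam and Aplnr), shares of 11.1% and 14.8% that were close to the 11.2% and 13.6% of all genes. After the adjustment 3 rose (Emcn, Kdr and Pecam1) and 2 fell (Cdh5 and Esam), and the median of -0.042 as deposited was 0.043. The summed level overlapped, at 307 to 343 RPKM at day 42 and 288 to 387 at day 21. Emcn, of a capillary and venous sialomucin, had 10.4, 12.4, 10 and 11.7 RPKM at day 42, against 6.39, 9.14, 7.34 and 8.12 RPKM at day 21. All day 42 values were higher (log2 change of 0.48 ± 0.12, limma adjusted p = 0.00586). Eng, of the TGF-beta co-receptor endoglin, had 23, 21.8, 23 and 23.4 RPKM at day 42, against 27.2, 29.9, 32.5 and 32 RPKM at day 21. All were lower (log2 change of -0.40 ± 0.07, limma adjusted p = 0.000635), with adjusted p = 0.0517 after the adjustment. Kdr, of the main VEGF receptor, was at 10.3 ± 1.27 RPKM at day 42 against 7.83 ± 0.681 at day 21 (log2 change of 0.35 ± 0.10, limma adjusted p = 0.0172), and Cdh5, of the cadherin of endothelial junctions, at 17.9 ± 1.9 RPKM at day 42 against 26.4 ± 2.44 at day 21 (log2 change of -0.54 ± 0.11, limma adjusted p = 0.00163).

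All 6 lymphatic endothelial genes tested had a positive estimate, with a median of 0.46, and 2 passed: Mmrn1 and Reln. Their summed level was 41.8 to 77.4 RPKM at day 42 and 27.4 to 43.9 at day 21, overlapping at the edge. Mmrn1, of the matrix protein multimerin 1, had 22.9, 15.6, 24.4 and 6.22 RPKM at day 42, against 2.77, 7.36, 8.95 and 7.04 RPKM at day 21. Mouse B12 lay within the range of day 21 (log2 change of 1.21 ± 0.35, limma adjusted p = 0.0183). The call of Mmrn1 ended without A3, B1 or B9 (adjusted p = 0.0627, 0.06 and 0.0629) and with only the 8 libraries in the fit (0.0649). Without A3, B1 or B9 0 of the 6 genes passed in limma, Reln included, and without A4 1 did. With the GC and length adjustment 3 passed: Flt4, the receptor of the lymphatic growth factor VEGF-C, Reln and Mmrn1. Prox1, the transcription factor of lymphatic identity, did not (log2 change of 0.32 ± 0.17, adjusted p = 0.163 as deposited).

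Few markers of the remaining cell types that a piece of scar could hold passed the test. Of 12 epicardial and mesothelial genes 0 passed in limma, as deposited or adjusted, and the summed level spread from 28.9 to 135 RPKM at day 42 and from 37.9 to 83.7 at day 21. Efemp1, the most abundant of them, had 6.19, 12.4, 23.5 and 18.9 RPKM at day 42, against 8.17, 9.08, 8.87 and 3.71 RPKM at day 21. The days overlapped (log2 change of 0.86 ± 0.40, limma adjusted p = 0.121), and the gene passed without B1 (adjusted p = 0.0315). Of 8 adipocyte genes 2 fell, Lipe and Cebpa, 1 without A4, A10, B1, B3 or B9, and 0 in limma after the adjustment. Of 7 Schwann cell and neuronal genes and of 5 skeletal muscle genes 0 passed in limma as deposited, with Pmp22 at -0.07 ± 0.09 and Eno3 at -0.02 ± 0.19. After the adjustment 0 of the 7 and 1 of the 5, the calcium channel gene Cacna1s, passed. The red cell list had 1 rise in 6, Bpgm, of the enzyme that makes 2,3-bisphosphoglycerate (log2 change of 0.49 ± 0.10, limma adjusted p = 0.00137). The haemoglobin genes Hba-a1 and Hbb-bs did not pass (log2 changes of 0.95 ± 0.49 and 0.91 ± 0.51, adjusted p = 0.171 and 0.197), and near-identical globin copies can share reads.

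Immediate early genes respond within minutes to stress or handling. In the remote region 4 of 24 were lower and 0 higher (median -0.39). In the scar 6 of 24 were lower (25%, against 13.6% of all genes tested) and 0 higher (median -0.28). After the adjustment 2 of the 23 with a GC value were lower in the scar, Egr1 and Fosl2 (8.7%, against 10% of all genes). The number lower was 2 without A10 or B9, 3 without A4 or B3 and 4 without A11 or B12. Egr1 had 2.84, 2.18, 2.43 and 2.44 RPKM at day 42, against 5.39, 5.4, 7.13 and 4.86 RPKM at day 21. The day 42 values were all below those of day 21 (log2 change of -0.94 ± 0.16, limma adjusted p = 0.000481, and -0.73, limma adjusted p = 0.00716 with the adjustment). Per1, a clock gene whose level follows the time of day and stress hormones, was at 8.52, 9.03, 5.33 and 8.1 RPKM at day 42, against 20.7, 21.7, 21.8 and 14.2 RPKM at day 21. Mouse A11 lay below the other day 21 mice and above all of day 42 (log2 change of -1.24 ± 0.29, limma adjusted p = 0.00477). None of the other 17 clock genes tested passed. The hour at which tissue was taken was not analysed here.

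Among the largest falls of all were short non-coding RNAs. Rny3 and Rny1, of Y RNAs, and Vaultrc5, of a vault RNA, are short polymerase III transcripts that form ribonucleoproteins, and Rmrp is the RNA of a processing ribonuclease. Rny3 had 40.3, 26.5, 16 and 37.2 RPKM at day 42, against 263, 264, 302 and 195 RPKM at day 21, and the days were wide apart (log2 change of -3.11 ± 0.33, limma adjusted p = 8.48e-06, and -1.85 after the adjustment). Vaultrc5 had 34.8, 37.8, 8.32 and 39.2 RPKM at day 42, against 222, 158, 193 and 185 RPKM at day 21. Mouse B9 lay below the other 3 of its day (log2 change of -2.82 ± 0.36, limma adjusted p = 3.85e-05, and -1.68 after the adjustment). Rny1 was at 19 ± 3.32 RPKM at day 42 against 66.7 ± 11.1 at day 21 (log2 change of -1.75 ± 0.24, limma adjusted p = 9.32e-05, no longer called after the adjustment, adjusted p = 0.0904), and Rmrp had 2258, 2258, 1602 and 2274 RPKM at day 42, against 4849.6, 4022, 6339.5 and 3705 RPKM at day 21, with B9 lowest (log2 change of -1.16 ± 0.21, limma adjusted p = 0.000795, and -0.47, limma adjusted p = 0.0425 after the adjustment). All 4 fell in the remote region as well (log2 changes of -2.52 ± 0.33, -2.64 ± 0.16, -2.10 ± 0.26 and -1.26 ± 0.17, limma adjusted p = 5.27e-05, 3.31e-09, 2.31e-05 and 3.17e-05). These transcripts are shorter than usual library fragments, and copies of Y RNAs elsewhere in the genome can share reads.

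Some of the largest rises were also seen in the remote region. The unnamed models chosen after their values were seen, Gm10800 and Gm10801, stood at 804 ± 144 RPKM at day 42 against 84.8 ± 45 at day 21 for Gm10800, and at 205 ± 32.6 RPKM at day 42 against 18.4 ± 10.7 at day 21 for Gm10801 (log2 changes of 3.37 ± 0.62, limma adjusted p = 0.000844 and 3.56 ± 0.64, limma adjusted p = 0.000814), and rose in the remote region too (log2 changes of 5.15 ± 0.90 and 4.66 ± 0.76, adjusted p = 0.000982 and 0.000531). The scar levels of both models varied widely on earlier days, between days and within them. Gm10800 averaged 14800.6 ± 8289.5, 383 ± 271 and 196 ± 180 RPKM on days 3, 7 and 14, and Gm10801 4153.5 ± 2298 RPKM on day 3. Nexn, of the sarcomere protein nexilin, had 67.2, 72.6, 58.8 and 55 RPKM at day 42, against 29.6, 24.2, 30 and 23.2 RPKM at day 21. The days were apart in the scar (log2 change of 1.22 ± 0.31, limma adjusted p = 0.0083), and it rose in the remote region too (limma adjusted p = 2.72e-06). The mitochondrially encoded mt-Nd2 and mt-Nd1, of subunits of respiratory complex I, were at 1281, 1200.5, 1203 and 852 RPKM at day 42, against 703, 518, 507 and 401 RPKM at day 21 for mt-Nd2, and at 4212, 4051, 3633 and 2888 RPKM at day 42, against 2124, 1783, 1617 and 1602 RPKM at day 21 for mt-Nd1. The days did not overlap in either (log2 changes of 1.10 ± 0.28, limma adjusted p = 0.0076 and 1.05 ± 0.21, limma adjusted p = 0.00168). The adjustment gave 0.68 for mt-Nd1 and ended the call of mt-Nd2 (adjusted p = 0.0512). In the remote region mt-Nd2 rose (log2 change of 1.07 ± 0.28, limma adjusted p = 0.0117) and mt-Nd1 was not called (log2 change of 0.58 ± 0.25, limma adjusted p = 0.108), and nuclear copies of both can share reads.

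Further rises by the naming rule were in Fsd2, a muscle gene (log2 change of 0.84 ± 0.28, limma adjusted p = 0.0346), Snrpd1, of a core protein of the splicing machinery (log2 change of 0.79 ± 0.10, limma adjusted p = 2.29e-05), Rps27l and Rpl35, of ribosomal proteins with close copies elsewhere (log2 changes of 0.79 ± 0.12, limma adjusted p = 0.000174 and 0.83 ± 0.21, limma adjusted p = 0.00833), and the unannotated RP23-434L22.2 (log2 change of 0.86 ± 0.17, limma adjusted p = 0.00163), which had no GC value. Fsd2 lost its call without A3, A4, A10, B1 or B3 (adjusted p = 0.0526, 0.0832, 0.0782, 0.0761 and 0.123). Further falls were in C1qtnf6, of a secreted relative of adiponectin, with 3.93, 3.6, 3.64 and 3.4 RPKM at day 42, against 9.18, 7.11, 15.6 and 13.4 RPKM at day 21, and Ssc5d, of a secreted scavenger receptor, with 3.94, 3.91, 3.57 and 3.64 RPKM at day 42, against 12.1, 10.3, 9.41 and 7.5 RPKM at day 21. For both the days were well apart (log2 changes of -1.35 ± 0.17, limma adjusted p = 2.8e-05 and -1.17 ± 0.10, limma adjusted p = 1.03e-06), also after the adjustment (-1.20 and -0.93, limma adjusted p = 4.63e-05 and 2.1e-05).

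The step before this one held no call. Between day 14 and day 21 in the scar 0 of 11390 genes (0%) passed in limma, with 1496 at an unadjusted p under 0.05, against 4256 for the step from day 21 to day 42. Voom on recovered reads also called 0. The count was 25 without day 14 mouse A5, 1 without day 21 mouse A4 or A11, 5 when scaled to recovered read totals and 6 with all 40 libraries and the mouse as a random effect. Both steps use the day 21 libraries, and the interval between the days differs. Over days 3, 7, 14, 21 and 42 Col1a1 averaged 512 ± 99.7, 1019 ± 160.4, 437 ± 128, 385 ± 84.6 and 104 ± 25.7 RPKM in the scar (SD, n = 4 each), Hspg2 averaged 87.9 ± 3.96, 92.5 ± 12.2, 81 ± 9.38, 89.1 ± 9.99 and 34.5 ± 4.74 RPKM, and Mmp3 averaged 13.2 ± 3.45, 2.67 ± 0.457, 14.5 ± 2.07, 23.1 ± 4.64 and 39.7 ± 3.94 RPKM. Every day 42 scar was below every earlier scar in Hspg2, Col1a1 and Col3a1. Mrc1 averaged 30.6 ± 3.96, 22.5 ± 4.66, 20.5 ± 2.35, 25 ± 3.54 and 37.8 ± 3.08 RPKM and F13a1 37.5 ± 4.53, 9.34 ± 3.95, 5.02 ± 1.22, 7.25 ± 2.1 and 16.1 ± 1.69 RPKM, with the lowest mean of each at day 14.

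**Figure D4:**
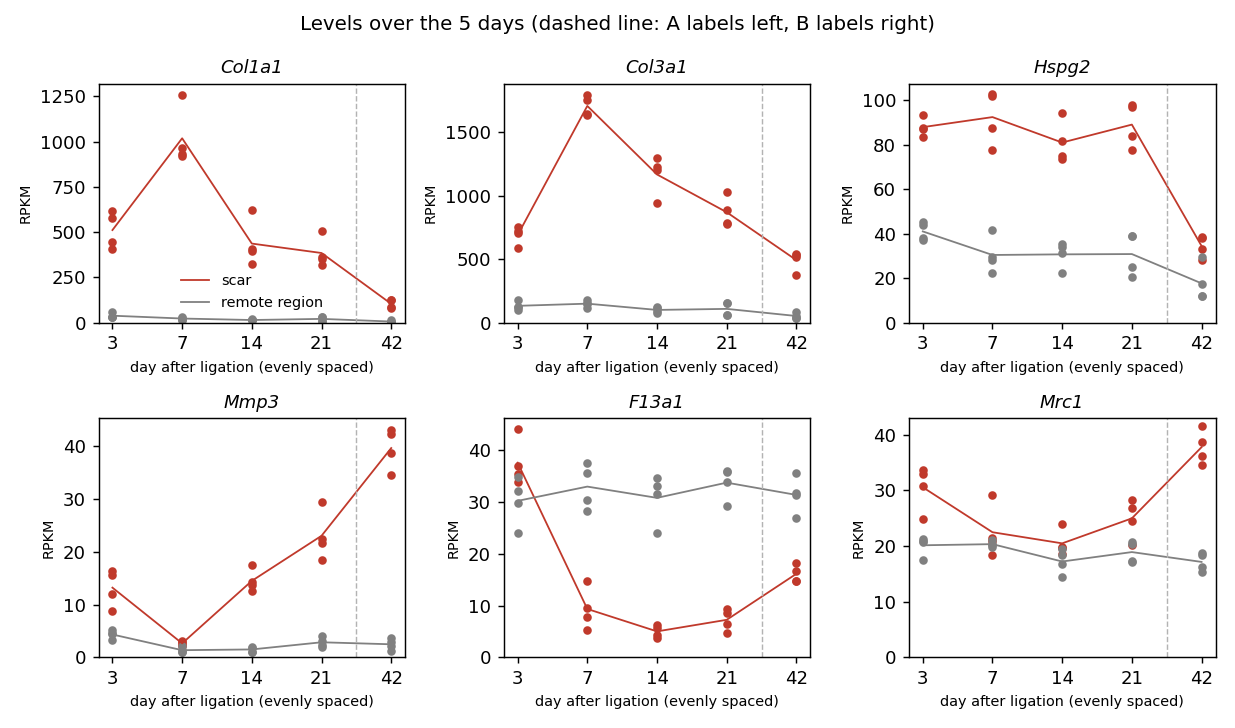
RPKM of 6 genes in every scar (red) and remote (grey) library on days 3, 7, 14, 21 and 42 (evenly spaced on the axis), with lines through the daily means; the dashed line parts mice with A labels from those with B labels. Col1a1, Col3a1 and Hspg2 are lowest in the scar at day 42, and Mmp3 and Mrc1 are highest there.

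The remote region of the same hearts changed over the same days as well. There 2339 of 11390 genes (20.5%) passed, 1186 higher (10.4%) and 1153 lower (10.1%), of which 123 (1.08%) and 31 (0.272%) changed by at least 1 on the log2 scale. The count was 1530 without B9 and 1465 with only the libraries of the 2 days in the fit. With the GC and length adjustment 9.98% of the genes were higher and 8.54% lower there (18.5% in all). The interaction of region and day, with the mouse as a block, was called for 1457 genes (12.8%), 522 (4.58%) with the more positive and 935 (8.21%) with the more negative step in the scar, and 12 (0.105%) and 78 (0.685%) of these by at least 1 on the log2 scale. That count depends on single mice: it was 591 without A3 and 2349 without A11, and 716, 976, 919, 875, 921 and 1546 without A4, A10, B1, B3, B9 and B12. After the GC and length adjustment 1059 of 11110 (9.53%) were called, 2.79% with the more positive and 6.74% with the more negative step in the scar. Genes with short transcripts leaned positive and long ones negative, with a median of 0.182 in the 2223 shortest and -0.104 in the 2222 longest.

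Collagen transcripts fell in the remote region too, and for most of them the steps of the regions were not shown to differ. Remote log2 changes of Col1a1, Col1a2, Col3a1 and Col5a1 were -1.62 ± 0.46, -1.22 ± 0.32, -0.97 ± 0.32 and -0.87 ± 0.28 (limma adjusted p = 0.0193, 0.0135, 0.041 and 0.035). Col1a1 in the remote region had 3.64, 3, 3.44 and 15.3 RPKM at day 42, against 9.64, 8.98, 33.8 and 31.7 RPKM at day 21, and its interaction was -0.27 ± 0.44 (limma adjusted p = 0.717). Those of Col1a2, Col3a1, Col5a1 and Col5a2 were 0.17 ± 0.32, 0.15 ± 0.30, -0.17 ± 0.28 and 0.08 ± 0.27 (adjusted p = 0.75, 0.769, 0.719 and 0.869). Each SE was larger than its estimate, so the regions were not shown to change alike either. Col5a3 and Col27a1 were called, with the more negative step in the scar (interactions of -0.52 ± 0.17, limma adjusted p = 0.0496 and -0.56 ± 0.16, limma adjusted p = 0.0289), and neither after the adjustment. Of the matrix lists, 2 of 10 fibrillar collagens, 1 of 20 other collagens, 2 of 32 processing genes, 1 of 17 elastic fibre genes and 2 of 32 proteases and inhibitors had the more negative step in the scar, against 8.21% of all genes. The more positive step was found in 2 of the 32 proteases and inhibitors and 2 of 14 proteoglycan genes, against 4.58% of all genes, and in 0 of the others.

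Of the genes that rose in the scar, F13a1, Mgl2, Mmrn1, Mrc1, Myoc and Mmp3 were not called in the remote region. F13a1, Mgl2, Mmrn1 and Myoc were among those named for the size of this difference, so they support nothing about classes of genes. Over whole lists, 4 of 30 macrophage genes (13.3%) and 3 of 6 lymphatic genes (50%) had the more positive step in the scar. Over all genes the share was 4.58%. F13a1 in the remote region had 31.2, 35.5, 26.8 and 31.7 RPKM at day 42, against 33.9, 29.2, 35.7 and 35.9 RPKM at day 21, with the days overlapping, and an interaction of 1.19 ± 0.18 (limma adjusted p = 0.000529). Mgl2, Mmrn1 and Mrc1 had interactions of 1.17 ± 0.26, 1.17 ± 0.28 and 0.72 ± 0.15 (adjusted p = 0.00681, 0.0112 and 0.00386), and all 4 genes kept the call after the adjustment. So did Myoc, of the secreted matrix protein myocilin (interaction of 1.23 ± 0.28, limma adjusted p = 0.00793), and Mmp3 (interaction of 0.94 ± 0.22, limma adjusted p = 0.00899). The scar call of Myoc itself (log2 change of 0.88 ± 0.30, limma adjusted p = 0.0383) was less firm and ended without A3, A10, A11, B1 or B12 (adjusted p = 0.0589, 0.0936, 0.123, 0.0806 and 0.122). Of 25 resting fibroblast genes, 6 (24%) had a more positive step in the scar, against 4.58% of all genes, and 0 a more negative one. Other lists leaned the same way. The more positive step was found in 8 of 39 oxidative phosphorylation (20.5%), 3 of 16 complement (18.8%) and 2 of 11 MHC class II genes (18.2%), with 0 more negative. Among 17 chemokine and cytokine genes it was found in 3 (17.6%), and the more negative in 1. Interaction counts of lists are given as deposited only, and the part of transcript length in them was not tested. The median log2 change of the resting fibroblast genes was 0.018 in the scar, where 3 rose and 2 fell. In the remote region it was -0.37, where 0 rose and 7 fell, and -0.24 with 3 falls after the adjustment. Rps16, of a ribosomal protein with many processed copies, had the largest positive interaction of the named genes (interaction of 1.64 ± 0.45, limma adjusted p = 0.0241, and no call after the adjustment). Its remote log2 change was -1.94 ± 0.45 (limma adjusted p = 0.00575), and it was not called in the scar.

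On the negative side, Neat1, of a nuclear long non-coding RNA, was at 47.6, 43.6, 49 and 49.7 RPKM at day 42, against 51.2, 42.5, 52.9 and 52.3 RPKM at day 21 in the scar. It was at 44.1, 52.3, 55.7 and 45.9 RPKM at day 42, against 10.1, 9.7, 17.9 and 23.3 RPKM at day 21 in the remote region. The scars did not part by day while the remote libraries did, with an interaction of -1.78 ± 0.24 (limma adjusted p = 0.000181). Phxr4, Lncpint, of a p53-induced non-coding RNA, Leng8 and the transcription factor gene Zbtb20 followed (interactions of -1.35 ± 0.16, -1.30 ± 0.22, -1.18 ± 0.17 and -1.09 ± 0.22, adjusted p at most 0.00383), and each of the 5 rose in the remote region. All 5 kept the call after the adjustment. Notch3, Egr1, Acvr1, Ssc5d and C1qtnf6 fell in the scar and were not called in the remote region, with interactions of -0.54 ± 0.10, -0.84 ± 0.18, -0.53 ± 0.13, -0.86 ± 0.21 and -0.79 ± 0.23 (adjusted p = 0.00265, 0.00536, 0.0104, 0.0104 and 0.0306), also called after the adjustment.

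**Figure D5:**
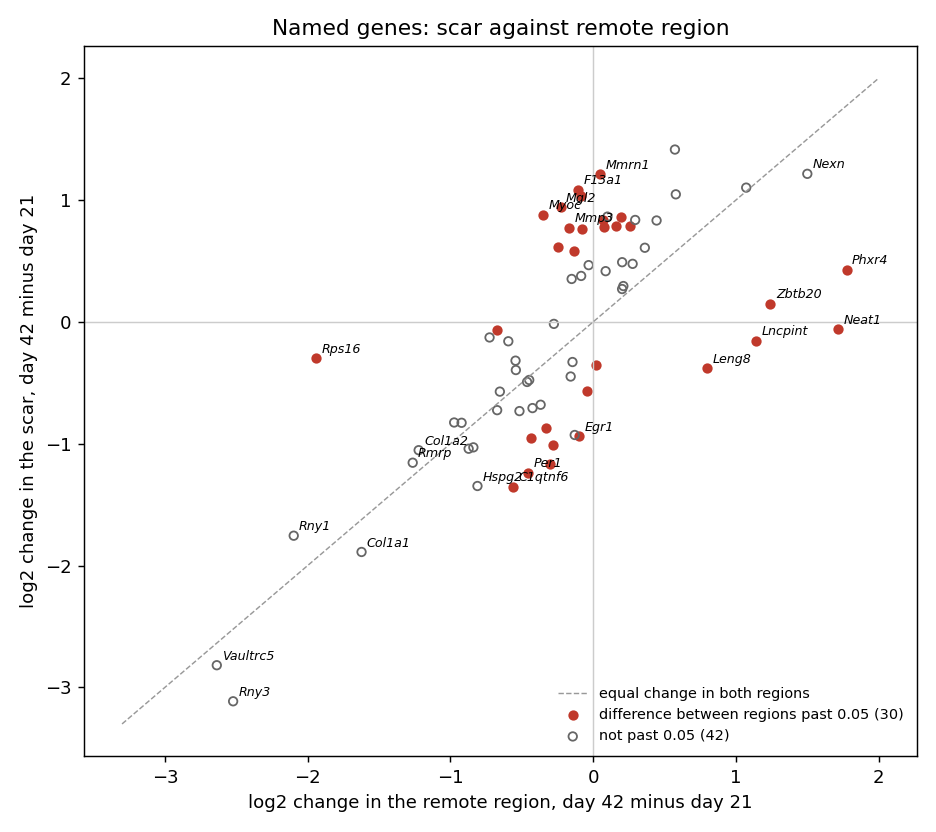
Log2 change from day 21 to day 42 in the scar (vertical axis) against that in the remote region (horizontal axis) for 72 named genes; filled points are the 30 genes whose steps differ between the regions (limma interaction, adjusted p under 0.05) and the dashed line marks equal change. Col1a1 and the short RNAs lie near the line at the lower left, F13a1, Mgl2 and Mmrn1 above it, and Neat1, Phxr4 and Zbtb20 to its right.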

How the data were processed

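RNA was sequenced from the scar and the remote region of ligated hearts, and the values used are RPKM for 11450 genes in 40 libraries, as deposited by the authors. STAR, edgeR and mm10 are named in the submitters' processing notes, and for the annotation, the strand setting and the library sizes behind the RPKM values the sources used here give nothing. Values of a gene are whole multiples of the worth of 1 read, and recovered reads were whole within 0.01 for 99.8% of the values.

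Genes with at least 1 RPKM in 4 of the 40 libraries were tested on log2(RPKM + 1) with limma 3.58.1 (trend and robust moderation, statmod 1.5.0, R 4.3.3). A fold change on this scale understates the change of low genes. All 20 scar libraries of the 5 days shared the fit of the scar steps and all 20 remote libraries that of the remote step. The region difference was fitted on all 40 with the mouse as a block. P-values were adjusted over all genes. The same heart gave both regions, per the submitters' design text, and the deviations of a mouse's regions from their group means correlated at 0.148 to 0.41 in the 8 mice of days 42 and 21. Each scar library of a day is a separate mouse. No 2 columns were identical.

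Symbols matched 1 GENCODE gene in 97.4% of cases, which gave coordinates, GC content and length. Ratios were compared by exact permutation. Genes are named by rule: the 12 largest rises and 12 largest falls among called genes without overlap and with a mean of 5 RPKM or more, leaving out unnamed models, ribosomal, nucleolar and micro RNA symbols and pseudogenes, while Y and vault RNAs and Rmrp were kept. To these were added from each list the member of smallest adjusted p in each direction (the most abundant where none was called), 6 collagens, and the 5 largest interactions each way. Other genes were chosen after their values were seen. The members and all lists were chosen with earlier results of these data known. The fits were tested on simulated data: of 100 genes changed by 0.5 on the log2 scale the scar fit recovered 80% and the region difference 53%, and of 100 changed by 1 they recovered 95% and 92%. The simulated noise was independent between libraries, with no GC pattern and no deviation shared by the regions of a mouse. These rates hold for that setting. Alternatives were another pseudocount, other filters, quantile, median and read-total scaling, plain moderation, voom on recovered reads, fewer libraries, a random mouse effect, no block, GC and length adjustment and leaving out each mouse. Python 3.11.15, numpy 2.4.6, pandas 2.3.3 and matplotlib 3.10.9 were used.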

Additional observations from a re-analysis of the deposited data

Results flagged for a closer look

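Some libraries lay apart from the other 3 of their group in named genes. The gap to the nearest library, as a share of the group's range, passed Dixon's 95% limit in 11 of 148 groups tested, where chance gives about 1 in 20. At day 42, mouse B9 was low in Rmrp (1602 RPKM, against 2258 to 2274 in the others; ratio 0.976) and in Vaultrc5 (8.32 RPKM, against 34.8 to 39.2; ratio 0.857). Mouse B1 was low in Col3a1 (374 RPKM, against 519 to 542; ratio 0.867) and mouse B12 high in Rny1 (24 RPKM, against 16.9 to 18; ratio 0.845). At day 21, mouse A11 was high in Rps27l (26.2 RPKM, against 18.7 to 19; ratio 0.956) and low in Per1 (14.2 RPKM, against 20.7 to 21.8; ratio 0.856) and in Efemp1 (3.71 RPKM, against 8.17 to 9.08; ratio 0.831). Mouse A4 was high in Omd (14.5 RPKM, against 9.12 to 9.82; ratio 0.871) and low in Ccnd1 (13 RPKM, against 14.5 to 14.8; ratio 0.851) and in Neat1 (42.5 RPKM, against 51.2 to 52.9; ratio 0.831). Mouse A10 was high in Col5a1 (108 RPKM, against 86.5 to 90; ratio 0.834).

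In 30 of the 72 named genes the step from day 21 to day 42 differed between the scar and the remote region (limma interaction with the mouse as a block, adjusted p under 0.05), against 12.8% of all genes tested. The named genes include the 5 largest such differences each way, which were named for their size, so the count over them supports nothing. The scar step was the more positive in 16. The differences on the log2 scale were 1.64 for Rps16, 1.23 for Myoc, 1.19 for F13a1, 1.17 for both Mgl2 and Mmrn1 and 1.12 for Ccl7. They were 0.942 for Mmp3, 0.862 for Vit, 0.837 for Omd, 0.764 for Uqcrb, 0.718 for Mrc1 and 0.707 for Cox6c. The remaining 4 were RP23-434L22.2 at 0.67, Rps27l at 0.626, Pmp22 at 0.603 and Snrpd1 at 0.532. The scar step was the more negative in 14. Here the differences were -1.78 for Neat1, -1.35 for Phxr4, -1.3 for Lncpint, -1.18 for Leng8 and -1.09 for Zbtb20. They were -0.865 for Ssc5d, -0.843 for Egr1, -0.791 for C1qtnf6, -0.782 for Per1 and -0.727 for Ltbp3. The smallest were Notch3 at -0.543, Acvr1 at -0.526, Col5a3 at -0.52 and Runx2 at -0.373. After the GC and length adjustment 20 of the 30 kept the call and 9 lost it (Uqcrb, Snrpd1, Rps27l, Cox6c, Ltbp3, Ccl7, Pmp22, Col5a3 and Rps16), and 1, RP23-434L22.2, had no GC value.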

How the results depend on the processing

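With 1 mouse left out the counts of called genes were 1899 to 2754 for the scar step, 1530 to 3031 for the remote step, 591 to 2349 for the difference between the regions and 0 to 25 for the scar step from day 14 to day 21. The log2 ratio differences in the scar were 0.76 to 0.91 for Col5a1 to Col1a1 and 0.95 to 1.13 for Col3a1 to Col1a1. With at least 5 RPKM required, 913 genes differed between the regions. With only the libraries of the 2 days in the fit, the remote step had 1465 calls and the region difference 651. The step from day 14 to day 21 had 5 calls when scaled to recovered read totals. Requiring a log2 change of at least 1 as well left 51 genes in the scar step, 154 in the remote step and 90 for the region difference. On pairing, the region difference had 1085 calls with no replicate block and 1689 with the replicate block as a random effect, against 1457 with the fixed block. The random block gave 2726 calls in the scar step, 2697 in the remote step and 6 for the step from day 14 to day 21. Under all other alternatives the scar count stayed between 2162 and 2969. The causes were not tested. The share of higher calls moved with scaling, in the remote step from 50.7% to 60.3% with quantile normalization and 38.8% with read totals. Of 72 named genes, 52 kept their side of the threshold in the scar under every alternative, 20 did not under at least 1, and 0 changed sign while called. List medians changed sign in 3 of 36 lists with equal library medians, 3 with quantile normalization, 2 with read totals and 8 with the GC and length adjustment. These 8 were the proteoglycan, late scar fibroblast, complement, neutrophil, endoplasmic reticulum, endothelial, adipocyte and skeletal muscle lists, with medians of at most 0.139 in size as deposited and 0.127 adjusted.

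With 4 mice a day, changes of 0.5 on the log2 scale are missed in part. The animal series and the day are the same split and the GC pattern runs with it, so none of the scar values can be given to time alone.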

Other observations

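Some gene groups, picked by symbol after their values had been seen, had more rises than falls in the scar as deposited. They had more falls than rises in the remote region, and the GC and length adjustment changed this in part. The counts below repeat some genes given above and are not independent of them. Respiratory chain subunits such as Uqcrb and Cox6c are in the oxidative phosphorylation list. Small non-coding RNAs such as Rny3 and mitochondrially encoded genes such as mt-Nd1 were named. Over all genes 11.2% rose and 13.6% fell in the scar, 10.4% rose and 10.1% fell in the remote region, and 4.58% had the more positive step in the scar. The first group was every gene with a symbol of Rpl or Rps and a digit, taken for cytosolic ribosomal proteins. This pattern also fits some other genes, such as those of kinases that act on ribosomal proteins, which were not removed. Of these 88 genes, 19 rose and 5 fell in the scar, while 2 rose and 38 fell in the remote region. For 36 the scar step was the more positive. After the adjustment 16 rose and 3 fell in the scar, 10 rose and 19 fell in the remote region, and 6 had the more positive step in the scar. Near-identical copies of ribosomal protein genes can share reads. Of 74 mitochondrial ribosomal protein genes, 21 rose and 1 fell in the scar, against 0 and 9 (12.2%) in the remote region, and 14 had the more positive step in the scar. The adjusted counts were 16 and 2 in the scar against 8 and 7 in the remote region, so the falls no longer outnumbered the rises there, and 3 for the step. Of 37 proteasome subunit genes, 9 rose and 1 fell in the scar, against 0 and 9 in the remote region, with 11 more positive in the scar, and after the adjustment 5 and 3 against 0 and 6, with 3. Genes with symbols of nuclear-encoded respiratory chain subunits, a pattern that also fits assembly factors, numbered 91. They had 13 rises (14.3%) and 3 falls in the scar against 1 and 34 in the remote region. For 21 the step was more positive in the scar. After the adjustment, for 90 of them, there were 12 rises and 3 falls in the scar against 5 and 13 in the remote region, and 2 were more positive in the scar. The median transcript lengths of these groups were 964.5, 1368, 1581 and 944.5 bases, against 3354 over all genes, and the part of length in the counts was not tested beyond the adjustment. Of 7 mitochondrially encoded genes 4 rose in each region, and 1 in the scar and 0 in the remote region after the adjustment. Of 12 small non-coding RNA genes 8 fell in the scar and 10 in the remote region, and 6 in each after the adjustment.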
